A study of Mus musculus with 30 samples.

Results

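MCA-943 is a fibrosarcoma cell line that arose in a mouse injected with the carcinogen methylcholanthrene, and 4 tumors grown from it under the skin of C57BL/6 mice were compared with 26 tumors of 4 sister lines. The tumors were taken by the line in their titles: 4 of MCA-943 among 30 in all, beside 8 of MCA-948, 8 of MCA-969, 6 of MCA-970 and 4 of MCA-972. Each line came from 1 primary tumor, so that a line is a single tumor and its replicates are transplants of it. The strain label read Ncr1Cre for the MCA-943 tumors and Ncr1Cre R26DTA for all 26 others, a genotype in which cells that express NKp46 are killed by diphtheria toxin. The study raised lines in mice of both genotypes and transplanted them into C57BL/6 mice, with and without an antibody that depletes NK1.1+ cells. Which of these tumors, if any, grew in depleted hosts is not labelled. Since no MCA-943 tumor shares its strain label with another line, line and strain label cannot be told apart. In the titles 1 MCA-943 tumor carried the letter W (W-2G) and 3 the letter a (a-1D, a-1G and a-R), whose meaning the labels do not give. No treatment or age was labelled. The study set up these lines to compare tumors that do or do not respond to NK1.1+ cells, and MCA-943 was labelled as not sensitive, like 6 of the 8 MCA-969 tumors.

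Hematopoietic cells had been removed with CD45 beads before RNA was extracted, so that the libraries hold mainly tumor cells and the stroma that lacks CD45. Totals were 27745104 to 46537062 assigned counts per tumor, and 30025426 to 45111926 in MCA-943. All 4 MCA-943 libraries were in the third library run, together with 6 MCA-948 libraries and no library of another line. Mitochondrial genes took 0.493 to 0.759% of the counts in MCA-943 and 0.464 to 1.70% elsewhere, and the 10 most abundant genes took 9.22 to 10.35% against 5.31 to 9.39%. Whether the 4 tumors of the line came from separate hosts is not labelled, and p-values measure the spread between these tumors only.

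The comparison was made with edgeR over all 30 tumors, as MCA-943 minus the mean of the 4 other lines, each with equal weight. Genes past an adjusted p of 0.05 (Benjamini-Hochberg) whose change reached 1 on the log2 scale were called. Levels are given as CPM, counts scaled to a common library size, and SE is the standard error. Of 16862 genes tested, 2011 (11.9%) were called higher and 1976 (11.7%) lower in MCA-943. The counts in gene lists are to be read beside these shares. A stricter rule asked for the same call in each of the 4 comparisons with a single line, and 718 genes (4.26%) were then higher and 581 (3.45%) lower. The 4 comparisons share the MCA-943 tumors. Every MCA-943 tumor lay above every other tumor in 1646 genes (9.76%) and below all of them in 1096 (6.5%). Within the third run, 2758 genes (18.1%) of 15220 tested were higher and 1742 (11.4%) lower in MCA-943 than in the 6 MCA-948 tumors of that run. With 5 line means in place of tumors, limma called 0 genes after adjustment, while 778 higher and 533 lower genes had an unadjusted p below 0.05 past the same fold threshold. The calls therefore describe 1 line against 4, with spread taken from transplants of each line.

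**Figure D1:**
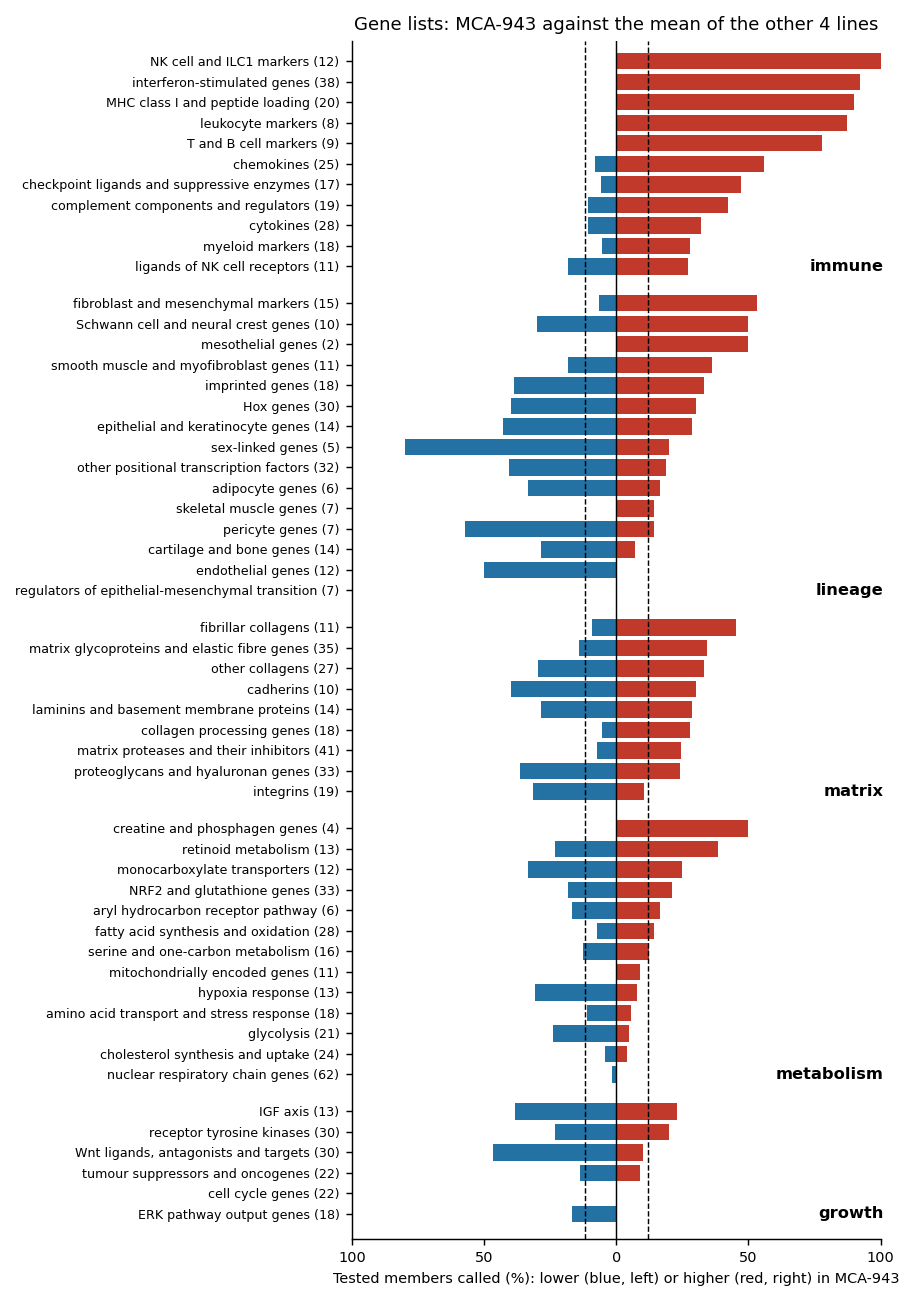
Percentage of the tested members of each of 54 gene lists that were called higher (red, to the right) or lower (blue, to the left) in MCA-943 against the mean of the other lines, with the number of members tested in brackets and dashed lines at the 11.9% and 11.7% of all genes. The bars of interferon-stimulated genes and MHC class I genes reach 92.1% and 90.0% to the right, while nuclear respiratory chain and cell cycle genes have almost no bar.

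Interferons are cytokines that, through their receptors and the STAT transcription factors, switch on a broad set of antiviral and antigen-presenting genes in nearly every cell type. Many of these genes carry an interferon-stimulated response element near the start site, searched here on either strand as GAAA, any 2 bases and GAAA again. MHC class I molecules, loaded with peptides cut by the immunoproteasome and pumped by the TAP transporter, show cell contents to CD8+ T cells and are also ligands of inhibitory receptors of NK cells.

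Interferon-stimulated genes were higher almost throughout the list in MCA-943. Of 38 members tested 35 were called higher and 0 lower, 31 of them against each of the 4 lines, with a median log2 fold change of 2.98 where the median of all genes tested was -0.01. Their summed level was 4429, 4826, 3048 and 7269 CPM in the MCA-943 tumors W-2G, a-1D, a-1G and a-R, the order used throughout, and 378 to 2205 CPM in the 26 others. No tumor of another line reached the lowest MCA-943 tumor.

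The promoters of these genes are shown because the same element recurs in them. RefSeq promoters (GRCm38.p6, 250 bases before to 50 after the start site) matched 29 of the 38 members, and 19 of the 29 (65.5%) held the element, against 3.49% of 27025 promoters in all. Among the 718 genes higher against each line, 487 had a promoter and 72 of these (14.8%) held it, and among the 581 lower genes 4 of 385 (1.04%) did. The 718 include members of the interferon-stimulated and MHC class I lists. Without both lists the share was 52 of 454 (11.5%). Other interferon-inducible genes, such as Gvin1, remain among the genes higher against each line. The share in the list comes from the choice of list and not from MCA-943, and the 27025 promoters include genes not tested. A match of these letters is a description and not a test of binding. The 250 bases upstream of the 4 members with the largest fold change that hold a match there follow, on the strand of the gene, with the matches in capitals, overlapping in Oas1a and Bst2.
Oas3: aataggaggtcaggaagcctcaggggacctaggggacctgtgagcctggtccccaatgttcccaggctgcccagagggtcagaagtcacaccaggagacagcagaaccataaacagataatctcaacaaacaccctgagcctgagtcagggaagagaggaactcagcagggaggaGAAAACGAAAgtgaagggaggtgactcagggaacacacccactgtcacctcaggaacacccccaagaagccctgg
Oas1a: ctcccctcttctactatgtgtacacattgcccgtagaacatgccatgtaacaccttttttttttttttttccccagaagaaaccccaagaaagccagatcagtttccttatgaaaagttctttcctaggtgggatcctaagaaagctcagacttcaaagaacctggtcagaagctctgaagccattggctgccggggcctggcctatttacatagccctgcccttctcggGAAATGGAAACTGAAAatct
Igtp: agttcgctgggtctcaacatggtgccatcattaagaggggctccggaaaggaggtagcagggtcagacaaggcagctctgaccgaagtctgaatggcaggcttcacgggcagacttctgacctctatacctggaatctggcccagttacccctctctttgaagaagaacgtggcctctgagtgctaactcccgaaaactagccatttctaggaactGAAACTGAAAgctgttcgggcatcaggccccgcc
Bst2: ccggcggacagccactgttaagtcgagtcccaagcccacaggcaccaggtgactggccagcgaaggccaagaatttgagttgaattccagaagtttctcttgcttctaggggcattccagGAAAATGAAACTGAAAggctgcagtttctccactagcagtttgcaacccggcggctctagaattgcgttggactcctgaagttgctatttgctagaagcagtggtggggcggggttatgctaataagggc
They lie at chr5:120777660-120777909 (Oas3, reverse strand), chr5:120907526-120907775 (Oas1a, reverse strand), chr11:58199306-58199555 (Igtp, forward strand) and chr8:71537473-71537722 (Bst2, reverse strand).

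Among them were the oligoadenylate synthetases, which sense double-stranded RNA. Oas2, which makes the second messenger 2-5A on meeting viral RNA, was at 46.9, 57.4, 22.9 and 71.5 CPM in MCA-943 and at 0 to 1.95 CPM elsewhere. Its log2 fold change was 6.66 (SE 0.34, adjusted p = 8.90e-16), but it was not called with the library run as a covariate (adjusted p = 0.0944). Oas3 and Oas1a of the same family had means of 38.2 ± 17.6 and 33.01 ± 15.8 CPM (SD, n = 4), against line means of 0.236 to 1.502 and 0.202 to 2.96 CPM. All 3 were free of overlap between MCA-943 and the other tumors. Ifi27l2a, a mitochondrial protein induced by type I interferon, reached 104, 81.2, 45.9 and 125 CPM, against 0.0611 to 1.68 CPM in the other lines, a log2 fold change of 7.38 (SE 0.25, adjusted p = 1.66e-19). Iigp1, a GTPase that attacks the vacuoles of intracellular parasites, was at 222, 258, 124 and 489 CPM, where the other tumors ended at 59.4 CPM. The restriction factors Bst2, which tethers budding viruses, and Isg15, a ubiquitin-like modifier, had log2 fold changes of 3.58 and 2.94. The 3 members not called were Isg20 (0.89), Irf1 (0.96) and Ifitm2 (0.80 on the log2 scale).

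Genes of antigen presentation were higher as well. Of 20 genes of MHC class I and peptide loading 18 were called higher and 0 lower, 14 against each line, with a median log2 fold change of 3.28. Psmb8, a catalytic subunit of the immunoproteasome, was at 182, 166, 123 and 223 CPM, above the 0.329 to 60.3 CPM of the others. The subunit Psmb9 and the transporter Tap1 had log2 fold changes of 4.53 (SE 0.23) and 4.09 (SE 0.23). The non-classical genes H2-Q6 and H2-Q7 were at 483 ± 108 and 273 ± 57.5 CPM (SD, n = 4), with line means that ran from 0.369 and 0.245 CPM in MCA-948 to 191 and 103 CPM in MCA-970. These paralogs are near-identical, so that their counts can hold reads of each other. For H2-Q6 the groups overlapped, the highest MCA-970 tumor being at 384 CPM and the lowest MCA-943 tumor at 355 CPM. Pdia3, a disulfide isomerase of the endoplasmic reticulum that also serves other proteins, stayed under the fold threshold (0.43), and 1 further chaperone was not called. The list of NK cell receptor ligands held 11 tested genes, 3 higher, 1 of these against each line, and 2 lower. These were 27.3% and 18.2%, against 11.9% and 11.7% of all genes. Raet1a, Raet1b, Raet1c and H60a could not be matched to a gene. Clec2d, the ligand of the inhibitory NK receptor NKR-P1B, was at 78.96, 71.1, 63.1 and 83.3 CPM against 8.28 to 26.99 CPM (log2 fold change 2.08, adjusted p = 6.23e-17). Of the stress-induced ligands of the activating receptor NKG2D, Raet1d and Raet1e were lower, with log2 fold changes of -3.75 and -1.65 and means of 0.07702 ± 0.0695 and 0.491 ± 0.299 CPM (SD, n = 4). The lowest other line was MCA-948, with 0.226 and 0.658 CPM, and neither gene was called against each line. Raet1e was not called with the library run as a covariate (adjusted p = 0.083). The MCA-943 mean of Raet1d lay under the floor of 3 counts per library (0.0906 CPM).

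Receptors and sensors of the interferon pathway were looked at after these values were seen. Ifngr1, the ligand-binding chain of the interferon-gamma receptor, was at 183, 164, 171 and 189.6 CPM and at 41.3 to 84.4 CPM in the others, with a log2 fold change of 1.69 (SE 0.08, adjusted p = 6.17e-17), called against each line. Tlr3, a sensor of double-stranded RNA, was at 28.5, 34.1, 23.4 and 51.9 CPM against 0.575 to 11.4 CPM and was also higher than each line. The type I receptor chains Ifnar1 and Ifnar2 were not called (0.02 and 0.16 on the log2 scale). Ifnb1 and Ifng were too low to enter the test. Ifnb1 was at 0.237, 0.271, 0 and 0.367 CPM in MCA-943 and at most 0.111 CPM elsewhere, and Ifng at 0.576, 0.296, 0 and 0.245 CPM against at most 0.435 CPM.

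Markers of hematopoietic cells, which the beads were meant to remove, were also higher in MCA-943. In these bulk libraries fewer cells of a type cannot be told from less RNA per cell. Of 8 leukocyte markers 7 were called higher and 1 of these against each line, and their summed level was 145, 109, 29.7 and 37.7 CPM in MCA-943 and 6.81 to 131 CPM in the others, so that the groups overlapped. All 12 markers of NK cells and ILC1 were called higher than the mean of the lines and 0 of them against each line. Their sum was 49.0 CPM in MCA-943 W-2G and 6.16 to 14.95 CPM in the other 3 MCA-943 tumors, against 0.419 to 34.2 CPM in the other lines. In those lines the highest sums were in tumors titled W, MCA-970 W-R and W-1D (34.2 and 33.1 CPM) and MCA-948 W-1D (16.6 CPM). Their tumors titled a reached 3.37 CPM at most (MCA-948 a-1G), below each MCA-943 tumor titled a. Ncr1, which encodes NKp46, was at 3.29, 0.0987, 0.0378 and 0.318 CPM. Ptprc, which encodes CD45, was at 25.1, 18.7, 3.14 and 2.94 CPM against 0.402 to 23.04 CPM, and in a-1G and a-R it lay between the means of the other lines (1.07 to 7.15 CPM). Among 9 T and B cell markers 7 were higher, led by Trbc2 (24.5, 20.9, 22.2 and 19.4 CPM), which was also at 15.6 CPM in MCA-969, while Trac was at 0.779, 1.48, 0.529 and 0.416 CPM. Of 18 myeloid markers 5 (27.8%, against 11.9% of all genes) were higher, among them 3 MHC class II genes and their chaperone Cd74. A further 1 (5.56%, against 11.7%) was lower. With the library run as a covariate Ptprc (adjusted p = 0.473), Trbc2 (adjusted p = 0.172) and Cd74 (adjusted p = 0.182) were not called, and Ncr1 turned in direction (log2 fold change -2.04).

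MCA-943 W-2G and a-1D, with 145 and 109 CPM of leukocyte markers, had 4429.5 and 4826 CPM of interferon-stimulated genes. MCA-943 a-1G, with 29.7 CPM of leukocyte markers, had 3048 CPM of interferon-stimulated genes, and a-R, with 37.7 CPM, had the 7269 CPM that was the highest of all 30 tumors. MCA-970 W-1D and W-R, with 131 and 87.5 CPM of leukocyte markers, had 1401 and 1361 CPM of interferon-stimulated genes. With the leukocyte level as a covariate, a fit added after the data were seen, 37 interferon-stimulated and 18 MHC class I genes were called higher, 31 and 13 of them against each line. With the library run as a covariate 36 and 18 were called higher, but 14 and 7 against each line. MCA-943 shared no run with MCA-969, MCA-970 or MCA-972, and within the third run, against MCA-948 alone, 38 and 18 of these genes were higher. MCA-948 had the lowest median sums of both lists (516 and 2548 CPM), so that this count cannot speak for MCA-969, MCA-970 or MCA-972. The fit with the leukocyte level adjusts for a sum of markers only. What part leukocytes had in these differences, for the lists or for single genes, was not tested.

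**Figure D2:**
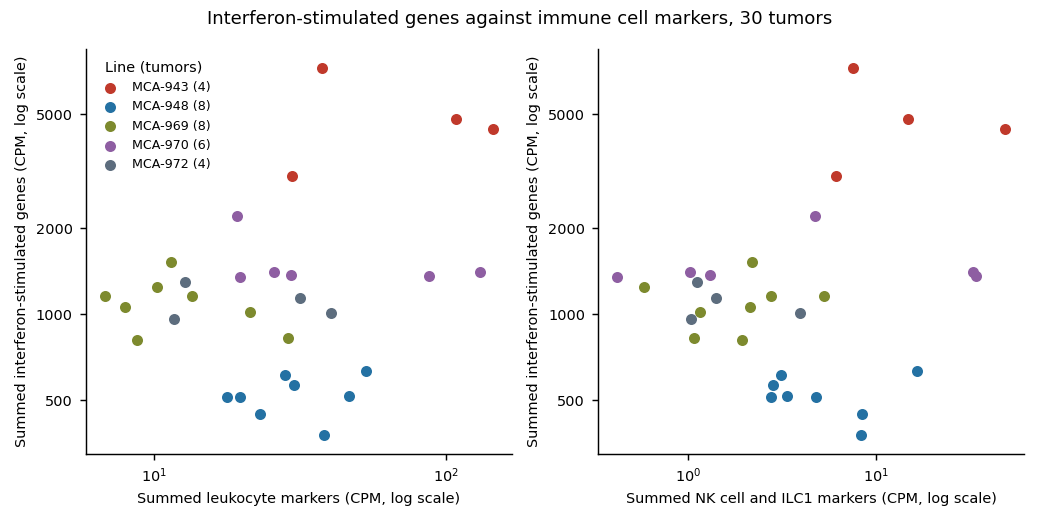
Summed CPM of 38 interferon-stimulated genes (vertical) against the summed CPM of 8 leukocyte markers (left) and of 12 NK cell and ILC1 markers (right), on log scales, with 1 point per tumor colored by line. The 4 MCA-943 tumors lie at 3048 to 7269 CPM, above all others, while their leukocyte sums of 29.7 to 145 CPM overlap those of other lines.

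Chemokines, which draw immune cells into tissue, were called higher in 14 of 25 cases (56%) and lower in 2 (8%). Against each line 9 were higher. Over all genes the shares were 11.9% and 11.7%. Cxcl9, the ligand of CXCR3 on T and NK cells, was at 221, 288, 118 and 737 CPM and at 0.101 to 45.99 CPM in the others, a log2 fold change of 6.02 (SE 0.45, adjusted p = 3.13e-12). The tumor a-R was the highest, and the lowest MCA-943 tumor was above the highest other tumor. Ccl5, Ccl8, Ccl9 and Ccl11 had log2 fold changes of 3.06, 3.07, 3.89 and 3.01 and did not overlap with the other lines either. The neutrophil attractants Cxcl1 and Cxcl2 were not called (0.46 and 0.47 on the log2 scale). Ccl25 and Ccl27a were lower (-1.28 and -1.95).

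Cytokines of lymphocyte survival were among the 9 of 28 (32.1%, against 11.9% of all genes) that were higher. A further 3 (10.7%, against 11.7%) were lower. Il15, which sustains NK cells and memory T cells, was at 39.5, 40.8, 34.9 and 49.96 CPM against 0.913 to 8.87 CPM, with a log2 fold change of 3.70 (SE 0.16, adjusted p = 1.53e-17). Il7, needed by naive T cells, rose by 3.63 on the log2 scale, Flt3l, a growth factor of dendritic cells, by 2.42, and the alarmin Il33 by 2.55. Of these 4, Il33 alone overlapped, the highest other tumor being at 139 CPM and the lowest MCA-943 tumor at 122 CPM. Csf3, the growth factor of neutrophils, and Il11 were lower (-3.25 and -1.59), Il11 not with the library run as a covariate (adjusted p = 0.202). The transforming growth factors Tgfb1, Tgfb2 and Tgfb3 were not called (0.80, -0.92 and 0.73).

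Of 17 checkpoint ligands and suppressive enzymes 8 (47.1%) were higher, 6 against each line, and 1 (5.88%) was lower. The shares of all genes were 11.9% and 11.7%. Cd80, the ligand of CD28 and CTLA-4, was at 27.7, 22.2, 22.9 and 22.3 CPM in MCA-943 and at 0.0655 to 1.93 CPM elsewhere (log2 fold change 5.55, SE 0.23, adjusted p = 2.80e-18). Tnfrsf14, the ligand of BTLA, Lgals9, a galectin that binds TIM-3, and the arginine-degrading enzyme Arg1 had log2 fold changes of 3.79, 2.58 and 2.72. Tnfrsf14 was not called with the library run as a covariate (adjusted p = 0.0875). Nt5e, which encodes the adenosine-producing ectoenzyme CD73, was lower, at 10.5, 11.1, 14.3 and 10.9 CPM against line means of 21.8 to 308 CPM. Of 19 complement components and regulators 8 (42.1%) were higher and 2 (10.5%) lower. C3, the central component, was at 218, 154, 165 and 258 CPM against 3.17 to 23.6 CPM, and C2, C1s1 and C1ra had log2 fold changes of 3.28, 2.60 and 2.08. Masp1, a protease of the lectin pathway, was lower (-2.54). The macrophage products C1qa, C1qb and C1qc were not called (0.22, 0.30 and 0.10).

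**Figure D3:**
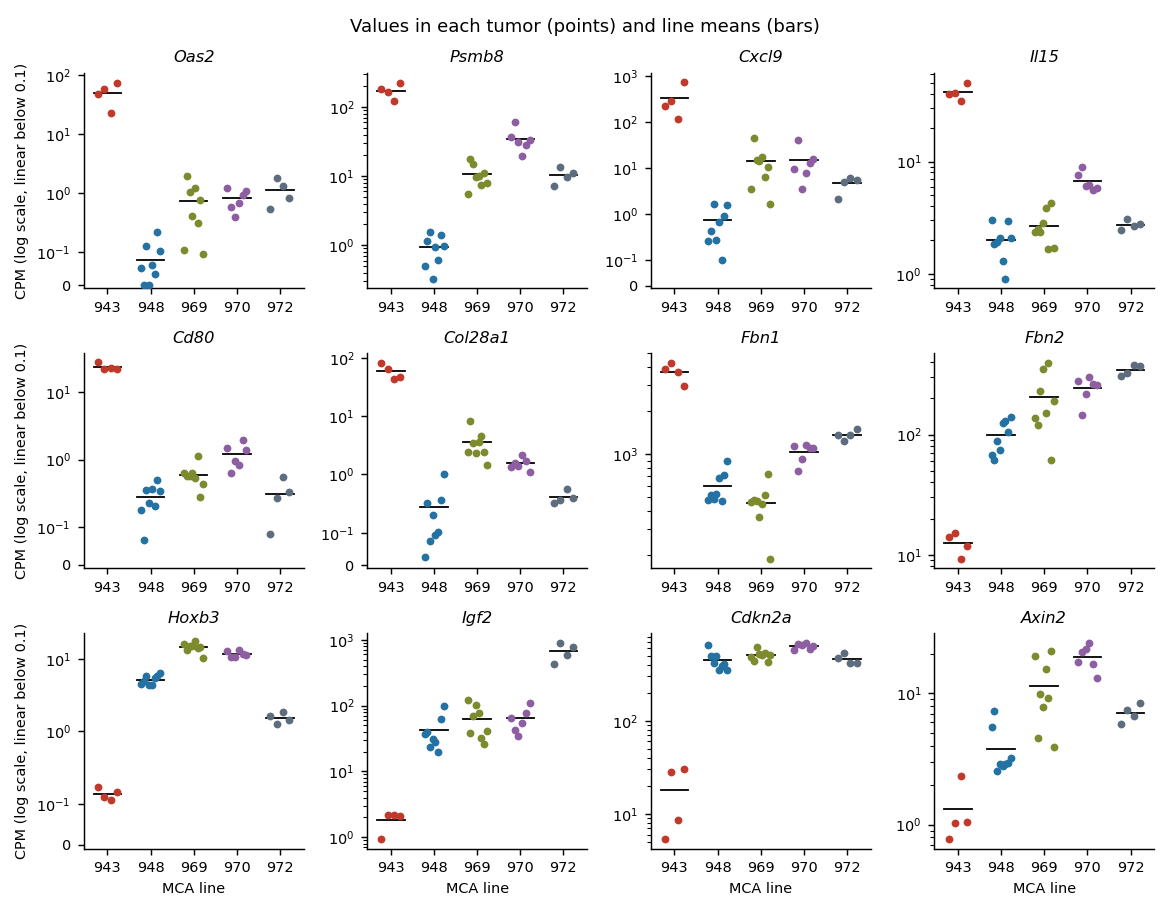
CPM of 12 genes in each of 30 tumors by line (points, with line means as bars) on log scales, linear below 0.1 in the panels whose lowest values are under 0.3. MCA-943 lies above every other tumor for Oas2, Psmb8, Cxcl9, Il15, Cd80, Col28a1 and Fbn1 and below every other tumor for Fbn2, Hoxb3, Igf2, Cdkn2a and Axin2.

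MCA-943 expressed the mesenchymal markers that its label of fibrosarcoma implies. Of 15 fibroblast and mesenchymal markers 8 (53.3%) were higher, 2 of these against each line, and 1 (6.67%) lower. These are the markers whose sum and mean level follow, and the shares of all genes were 11.9% and 11.7%. Their sum, weighted to the most abundant genes, was 77892 to 92522 CPM against 16056 to 74279 CPM in the other tumors, with no overlap. The mean of their log2 levels did overlap, at 10.07 to 10.41 in MCA-943 and up to 10.19 in MCA-972. Col1a1 was at 14318, 13540, 14734 and 12559 CPM, and the highest other tumor at 8447 CPM. Lum, a small proteoglycan of collagen fibers, was the exception, at 43.1, 36.9, 37.8 and 10.5 CPM against 841 CPM in MCA-972, but 26.2 CPM in MCA-948. The markers Pdgfra, Pdgfrb and Vim stayed under the fold threshold (0.81, 0.79 and 0.81). Among contractile genes Actg2, the enteric smooth muscle actin, was higher than each line, at 129, 107, 119 and 115 CPM, where MCA-972 had 35.3 CPM and the other 3 lines 0.303 to 1.295 CPM. Acta2 (2.36) and Tagln (2.10) were higher than the mean of the lines but close to MCA-972, and the late marker Cnn1 was lower (-1.90), at 1.51 ± 0.364 CPM (SD, n = 4) against 133 CPM in MCA-972 and 0.0835 CPM in MCA-948. Cnn1 was not called with the library run as a covariate (adjusted p = 0.374).

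Some epithelial genes stood out on this background. Plet1, a surface marker of placental and epithelial progenitors, was at 141, 103, 118 and 126 CPM, while MCA-969 was at 15.8 CPM and the means of the other 3 lines below 1 CPM. Jup, the plakoglobin of desmosomes and adherens junctions, was at 227, 229, 211 and 183 CPM against 10.3 to 78.4 CPM. Cdh1, which encodes E-cadherin, was higher at 6.81, 4.07, 3.48 and 3.94 CPM, and Cdh2, which encodes N-cadherin, lower, at 32.7, 35.6, 33.8 and 30.8 CPM against 53.1 to 118 CPM. Both differed from each line, but Cdh1 was not called with the library run as a covariate (adjusted p = 0.0585). Of the 14 epithelial genes tested 4 (28.6%) were higher and 6 (42.9%) lower, against 11.9% and 11.7% of all genes. The keratin gene Krt18 was lower, at 3.03 ± 0.598 CPM (SD, n = 4) against 255 CPM in MCA-969 but 0.636 CPM in MCA-972. The gap junction gene Gjb5, expressed in keratinocytes, was at 39.6, 32.2, 33.3 and 41.5 CPM against 0.104 to 1.89 CPM. Of 7 regulators of epithelial-mesenchymal transition 0 were called by edgeR, and Zeb1, Zeb2 and Snai2 had log2 fold changes of 0.27, 0.26 and 0.21.

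Schwann cell genes were split. L1cam, a neural adhesion molecule, was at 39.6, 30.96, 22.1 and 29.7 CPM (log2 fold change 3.06), and Erbb3 and S100b were likewise higher than each line, at low levels of 1.44 ± 0.393 and 0.665 ± 0.185 CPM (SD, n = 4), though S100b was not called with the library run as a covariate (adjusted p = 0.0929). Gap43, a growth cone protein, was lower than each line at 9.08, 13.1, 10.8 and 12.3 CPM, against 20.8 to 146 CPM. Acan, the aggrecan of cartilage, had 0 counts in all 4 MCA-943 tumors and 0.0736 to 160.4 CPM in the others. Taking the floor of 3 counts per library (0.0906 CPM), it was at least 407-fold below the mean of the 4 line means. Those line means ran from 1.255 to 125.9 CPM, so that this bound does not hold for each line. The lowest other tumor was itself under that floor. Of 12 endothelial genes 6 (50%, against 11.7% of all genes) were lower and 0 higher, none against each line. The adjusted p values of the 6 were 0.029 (Vwf, the von Willebrand factor) to 0.0499 (Erg). None of the 6 was called at an adjusted p below 0.01, with the library run or the leukocyte level as a covariate, by limma-voom, without a filter on low counts, or without MCA-943 W-2G, a-1D or a-1G. The summed endothelial level was 90.2 to 194 CPM in MCA-943 and 41.1 to 672 CPM in the others. Of 7 pericyte genes 4 (57.1%) were lower and 1 (14.3%), the proteoglycan gene Cspg4, was higher (1.34). With the library run as a covariate 0 of the 5 were called. The pericyte sum of 182 to 245 CPM lay within the 60.6 to 339 CPM of the others.

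Hox genes differed by cluster. They record where along the body axis a mesenchymal cell arose, and adult fibroblasts keep their pattern. Of 30 Hox genes tested 9 (30%) were higher and 12 (40%) lower, against 11.9% and 11.7% of all genes. All 8 Hoxb genes tested, Hoxb2 to Hoxb9, were lower than the mean of the lines and had means of 0.0792 to 0.224 CPM in MCA-943. Hoxb3 was at 0.169, 0.123, 0.113 and 0.147 CPM against 1.27 to 17.3 CPM (log2 fold change -5.42, SE 0.19, adjusted p = 1.56e-19), and Hoxb2, Hoxb3 and Hoxb4 were lower than each line. From Hoxb5 to Hoxb9 MCA-972 was as low, at means of 0.146 to 0.179 CPM. Hoxa9 and Hoxa10 were near 0 in MCA-943, MCA-948 and MCA-972 and at 13.2 to 28.7 CPM in the other 2 lines. Hoxa7 was at 21.8, 15.9, 16.97 and 18.3 CPM, close to the 17.2 CPM of MCA-969. In the Hoxc cluster Hoxc4 was higher than each line (16.3, 15.6, 17.2 and 14.3 CPM against 1.26 to 5.44 CPM), and Hoxc8 and Hoxc9 were above every other tumor at 65.2 ± 4.47 and 52.96 ± 2.36 CPM (SD, n = 4). Hoxc10 was at 4.16 ± 0.1998 CPM (SD, n = 4), with line means of 0.463 to 88.8 CPM. Hoxa9 and Hoxc10 were not called with the library run as a covariate.

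**Figure D4:**
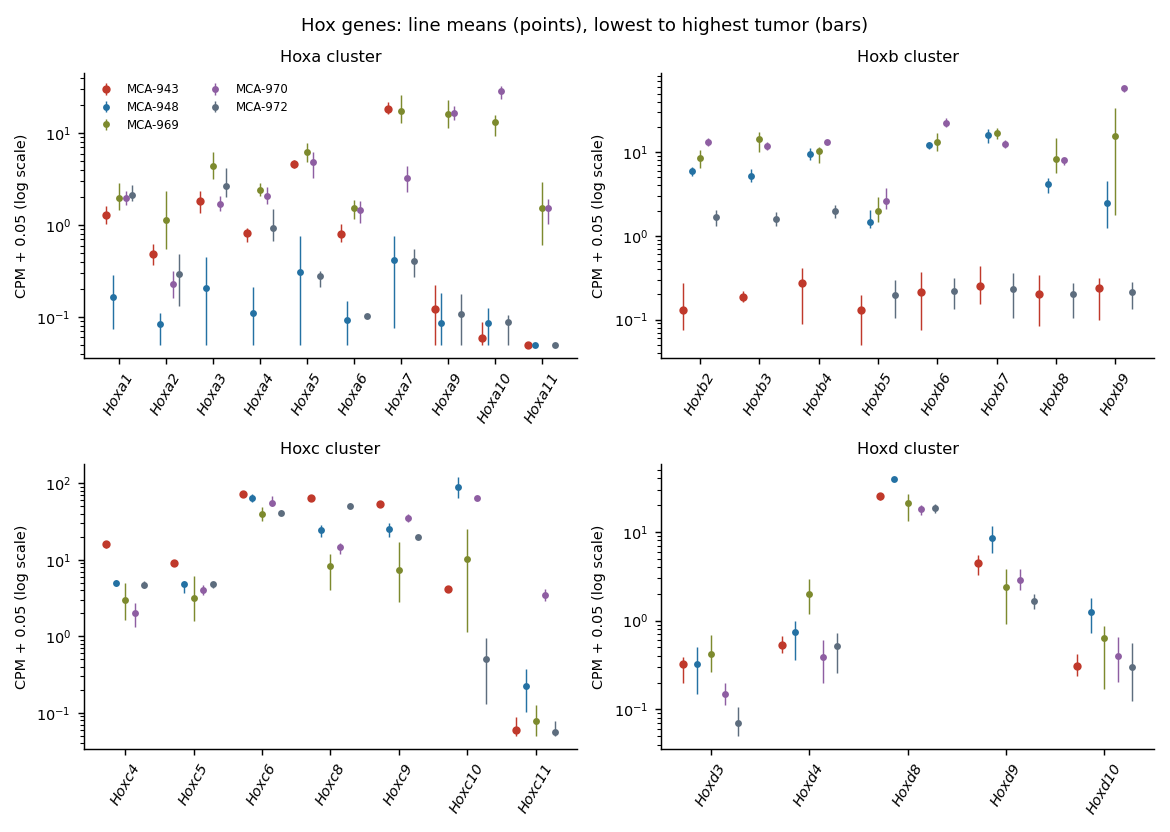
Mean CPM of each tested Hox gene in the 5 lines, plus 0.05 and on a log scale, with bars from the lowest to the highest tumor and 1 panel per cluster. In MCA-943 (red) the whole Hoxb cluster lies below 0.5 CPM while Hoxa5, Hoxa7 and Hoxc4 to Hoxc9 are expressed.

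Other patterning factors gave 6 higher (18.8%) and 13 lower (40.6%) genes of 32, against 11.9% and 11.7% of all genes. The homeobox gene Dlx1 was higher than each line, at 5.49, 6.17, 4.91 and 5.22 CPM against 0.0245 to 2.83 CPM, and Dlx2 matched only MCA-969 (7.42 ± 0.854 and 7.98 CPM). Shox2, which patterns the proximal limb, was lower than each line at 11.05, 11.6, 13.7 and 12.6 CPM against 32.4 to 128 CPM. Hand2, a regulator of posterior limb and branchial arch, had 0 counts in MCA-943, but only MCA-970 expressed it above 1 CPM (5.997 CPM). The zinc-finger factor Gata6 was at 0.136, 0.296, 0.265 and 0.122 CPM, against 4.72 to 37.04 CPM in every other line (log2 fold change -6.41, adjusted p = 9.66e-12). Tbx3 was lower too, at 46.1, 41.6, 48.8 and 45.2 CPM against 78.03 to 214 CPM.

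Sex-linked genes placed MCA-943 with MCA-972. Xist, the RNA that silences 1 X chromosome in female cells, was at 550.3, 583, 529.9 and 543 CPM in MCA-943 and 481 CPM in MCA-972 and below 1 CPM in the other 3 lines. The Y-linked genes Ddx3y, Eif2s3y, Kdm5d and Uty were at 1.58 ± 0.432, 1.31 ± 0.763, 0.581 ± 0.407 and 0.583 ± 0.197 CPM (SD, n = 4) in MCA-943, and Ddx3y was at 48.9 to 80.8 CPM in MCA-948, MCA-969 and MCA-970. None of these 5 genes was called against each line.

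The extracellular matrix of MCA-943 differed by member. Fibrillar collagens were higher in 5 of 11 cases (45.5%, against 11.9% of all genes) and lower in 1 (9.09%, against 11.7%). Col1a1 (1.91), Col1a2 (1.82) and Col3a1 (1.51 on the log2 scale) were above every other tumor. Col24a1 was lower, at 7.18, 8.86, 9.41 and 9.698 CPM against 14.02 to 109 CPM. Serpinh1, the collagen chaperone HSP47, was at 2221, 2133, 2072 and 2106 CPM against 452 to 1288 CPM and higher than each line. The crosslinking enzymes Lox, Loxl1 and Loxl3 were higher than the mean (1.42, 1.63 and 1.56), with MCA-972 at a like level, for example 638 ± 21.5 and 664 CPM for Loxl3.

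Of 27 other collagens 9 (33.3%) were higher and 8 (29.6%) lower, against 11.9% and 11.7% of all genes. Col28a1, a beaded-filament collagen described in peripheral nerve, was at 81.1, 65.3, 44.1 and 47.6 CPM, against 0.0261 to 8.40 CPM, a log2 fold change of 6.05 (SE 0.29, adjusted p = 2.05e-16). Col8a1, the short-chain collagen of vessel walls and cornea, was at 649, 701, 586 and 650.5 CPM, above the 339.8 CPM of the highest other tumor. Col12a1, which links collagen fibrils, was lower than each line, at 91.1, 87.6, 178 and 109 CPM against 224 to 1645 CPM. Col25a1 was nearly absent, at 0.117 ± 0.09899 CPM (SD, n = 4) against line means of 0.941 to 25.2 CPM.

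Elastic fiber genes moved in opposite directions within families. Fbn1, the fibrillin of adult microfibrils, was at 3903, 4284, 3732 and 2977 CPM against 187 to 1492 CPM, and Fbn2, the fibrillin expressed mainly before birth, at 14.1, 15.1, 9.298 and 11.8 CPM against 61.7 to 392.4 CPM. Their log2 fold changes were 2.25 (SE 0.16) and -4.01 (SE 0.38), and neither overlapped. Efemp1 and Fbln2 of the fibulin family were higher (2.43 and 1.95) and Fbln1 was lower (-2.69). Thbs4, a thrombospondin of tendon, was at 917, 775, 870.2 and 750.3 CPM against 1.19 to 426 CPM. In the basement membrane Lama4 and Nid1 were higher (1.74 and 1.16) and Lama1 was lower than each line (0.0543 ± 0.0227 against 0.694 to 20.7 CPM).

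Of 41 matrix proteases and their inhibitors 10 (24.4%) were higher and 3 (7.32%) lower, against 11.9% and 11.7% of all genes. The inhibitors Reck and Serpine2 were among those called (1.29 and -2.07, Serpine2 not with the library run as a covariate, adjusted p = 0.0505). Mmp28 was at 44.9, 43.7, 42.3 and 44.8 CPM against 2.22 to 23.4 CPM, and Mmp23, also without overlap, at 78.9, 68.7, 70.0 and 73.1 CPM. Adamts8 had a log2 fold change of 3.81. Mmp10, a stromelysin, was lower than each line at 17.7, 22.9, 22.8 and 16.6 CPM against 24.4 to 533 CPM. The collagenase Mmp13 was not called (0.77). Of 33 proteoglycan genes 8 (24.2%) were higher, among them Dcn (1.62), and 12 (36.4%) lower, among them Spock2 (-3.94). Of 19 integrins 2 (10.5%) were higher, near the share of all genes, and 6 (31.6%) lower. Itga8 (0.397 ± 0.111 CPM) was at the level of MCA-948 (0.348 CPM) but below the 39.9 CPM of MCA-970.

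In core metabolism and cell division few genes differed. Of 62 nuclear respiratory chain genes 0 were higher and 1, Cox4i2, was lower (not with the library run as a covariate, adjusted p = 0.436), of 24 genes of cholesterol synthesis and uptake 1 was higher and 1 lower, and of 22 cell cycle genes 0 were called by edgeR. These shares were below the 11.9% and 11.7% of all genes. Without the fold threshold 7 cell cycle genes had an adjusted p below 0.05 upward and 6 downward, so that the list was not without differences of smaller size.

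Single members of glycolysis and the hypoxia response were lower. Of 21 glycolytic genes 5 were lower (23.8%, against 11.7% of all genes) and 1 higher, with a median log2 fold change of -0.31. Pfkfb3, which makes the activator of phosphofructokinase, was lower than each line, at 19.7, 19.7, 16.6 and 15.3 CPM against 28.2 to 158 CPM (log2 fold change -2.19, adjusted p = 4.44e-07). The glucose transporter Slc2a1 was lower than the mean (-1.25), and so was the hexokinase Hk2 (-1.04), whose 4 values all lay below the other tumors. The enzymes Ldha and Pkm were not called (-0.20 and -0.21). The hypoxia list held 13 tested genes, 4 lower (30.8%), 1 of these against each line, and 1 higher. In the hypoxia response Vegfa was lower than each line at 131, 126, 145 and 101.9 CPM against 146 to 589 CPM, and Bnip3 and Adm were lower than the mean (-1.22 and -1.50), while Car9 was higher than the mean (1.01, adjusted p = 0.049) but below MCA-969. With the library run as a covariate Slc2a1 (adjusted p = 0.161), Vegfa (adjusted p = 0.0933), Bnip3 (adjusted p = 0.283) and Adm (adjusted p = 0.55) were not called.

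Detoxification and retinoid genes differed by enzyme. Gstm2, a glutathione transferase, was at 78.6, 69.1, 83.1 and 73.2 CPM against 2.57 to 12.7 CPM, and Gsta4, which clears 4-hydroxynonenal, at 0.441, 0.345, 0.529 and 0.4898 CPM against 1.47 to 57.0 CPM. Neither overlapped. The aryl hydrocarbon receptor gene Ahr, whose product binds methylcholanthrene, was lower than each line, at 3.73, 2.69, 2.53 and 2.79 CPM against 3.84 to 29.7 CPM (log2 fold change -1.79, SE 0.24, adjusted p = 2.39e-07). Its target Cyp1b1 was higher than the mean of the lines (2.48). Of 13 genes of retinoid metabolism 5 (38.5%) were higher and 3 (23.1%) lower, against 11.9% and 11.7% of all genes. Crabp2, which carries retinoic acid in the cell, was higher than the mean (2.73). Rbp4, the carrier of retinol in blood, was at 0.237, 0.666, 0.529 and 0.441 CPM against 5.08 to 46.6 CPM, and Cyp26b1, which degrades retinoic acid, was lower than each line (-4.44). Aldh1l1 of the folate pathway was at 37.99, 38.1, 34.9 and 31.5 CPM, above all others (3.405 to 28.01 CPM).

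Of 22 tumor suppressors and oncogenes 2 were higher and 3 lower, close to the shares of all genes, and the lower ones included a pair of neighbors. Cdkn2a, which encodes the cell cycle inhibitors p16 and p19Arf, was at 5.42, 28.1, 8.54 and 30.02 CPM in MCA-943 and at 349 to 678 CPM in the others, a log2 fold change of -4.80 (SE 0.33, adjusted p = 3.32e-13). Its neighbor Cdkn2b, which encodes p15, was at 0.779, 2.44, 1.44 and 3.97 CPM against 38.4 to 89.2 CPM (-4.79). Both lie on chromosome 4 of GRCm38, Cdkn2a from 89274471 to 89294653 and Cdkn2b from 89306299 to 89311039, on the reverse strand. Mtap, in the same region, from 89137122 to 89181081, was not called (0.11). In MCA-943 a-R and a-1D both genes were above their levels in a-1G and W-2G. Copy number was not measured. Other inhibitors of the cell cycle, Cdkn1b and Cdkn1c, were not called (0.44 and 0.55). Trp53 was at 112 ± 3.46 CPM (SD, n = 4) in MCA-943, between 2.15 CPM in MCA-948 and 142 CPM in MCA-969. Myc was lower than the mean (-1.25), at a level like those of MCA-970 and MCA-972, and was not called with the library run as a covariate (adjusted p = 0.37).

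The Wnt list was tilted down, with 14 of 30 members (46.7%) lower and 3 (10%) higher. The shares of all genes were 11.7% and 11.9%. Against each line 7 members were lower. Axin2 and Nkd1, feedback inhibitors that Wnt signals induce, were at 0.779, 1.04, 2.34 and 1.05 and 0.0339, 0.07401, 0.0378 and 0 CPM, against 2.55 to 24.1 and 0 to 13.1 CPM. The ligand Wnt7b was at 4.27, 5.502, 8.66 and 4.702 CPM against 13.2 to 73.6 CPM, and the R-spondin Rspo4, which strengthens Wnt signals, at 3.42, 3.43, 3.63 and 4.51 CPM against 11.2 to 44.2 CPM. Of these 4, Nkd1 alone overlapped with the others. The transcription factors Lef1 and Tcf7 had log2 fold changes of -2.38 and -2.08. Rspo2 was higher than the mean of the lines (2.89), with MCA-972 close to it.

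In the insulin-like growth factor axis Igf2 was at 0.949, 2.15, 2.19 and 2.11 CPM against 19.4 to 883 CPM (log2 fold change -5.79, SE 0.56, adjusted p = 4.91e-10). Igf2bp3 and Igf2bp2, proteins that bind its messenger RNA, were lower than each line (-3.27 and -1.22), as was the binding protein gene Igfbp2 (-7.11). Igf1 was higher than the mean (1.75), and Igfbp6 was higher than each line (1.95). The imprinted RNA H19, next to Igf2, was also lower than each line (-2.42) but stayed at 121, 161, 157 and 139 CPM. Among receptor tyrosine kinases Erbb2 and Erbb3 were higher than each line (2.12 and 2.62), Axl and Egfr were above every other tumor (1.08 and 1.35, the latter 0.88 and under the fold threshold with the library run as a covariate), and Epha7, Ntrk2 and Kit were lower than each line (-8.70, -3.90 and -3.03). Met was near MCA-970 (89.2 ± 9.42 and 107 CPM).

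Some genes marked the line outside these lists, by the largest difference from its nearest line among protein-coding genes called against each. Tnfrsf26, a decoy receptor of the TNF family, was at 142, 144, 149 and 124 CPM against 0.355 to 3.46 CPM (log2 fold change 6.99, SE 0.18, adjusted p = 4.11e-22). Sp140, a chromatin reader better known from lymphocytes, was at 47.6, 45.1, 35.4 and 56.99 CPM against 0.124 to 2.39 CPM, and Csmd1, a complement regulator, at 14.9, 11.03, 8.13 and 7.86 CPM against 0 to 0.542 CPM. The transcription factor Nfe2l3 was at 9.93, 4.74, 4.91 and 7.03 CPM, where the highest other tumor had 0.239 CPM. The interferon-inducible GTPase genes Gvin1, Gm4070 and Gm12185 had log2 fold changes of 5.78, 5.79 and 6.09 and can share reads with close paralogs. Skint3 and Tcf23 completed the list at 1.58 ± 0.617 and 1.04 ± 0.296 CPM (SD, n = 4). With the library run as a covariate, Skint3 (adjusted p = 1), Nfe2l3 (adjusted p = 0.975), Gm12185 (adjusted p = 0.962) and Oas2 (adjusted p = 0.0944) were no longer called.

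Genes nearly silent in MCA-943 were led by Cadps, which primes secretory vesicles. It had 0 counts in each of the 4 MCA-943 tumors and 6.18 to 68.7 CPM in the others. The means of the other lines ran from 8.75 to 44.9 CPM. Taking the floor of 3 counts per library, Cadps was at least 329.8-fold below the mean of these 4 line means. On chromosome 14 it spans 12372563 to 12823079 (reverse strand). Ism1, a secreted angiogenesis inhibitor on chromosome 2 (139678178 to 139758581), and the transporter Slco5a1 on chromosome 1 (12866549 to 12992650) had at most 3 counts in each MCA-943 tumor and at least 1 CPM in each other tumor. These 3 were the genes absent from MCA-943 alone by that rule, and 0 genes were present in it alone. Ptprf, a receptor phosphatase, was at 0.237, 0.247, 0.151 and 0.122 CPM against 33.1 to 132 CPM, a log2 fold change of -8.54 (SE 0.27, adjusted p = 8.19e-21). Mdk, the heparin-binding growth factor midkine, and its receptor phosphatase Ptprz1 were both low, Mdk at 0.542, 1.88, 0.113 and 1.102 CPM against 48.8 to 306 CPM and Ptprz1 at 0.0123 ± 0.0142 CPM (SD, n = 4) against line means of 1.149 to 6.64 CPM. The signaling genes Gnai1, Map2 and Nlgn1, the hair protein gene Tchh and the unnamed gene 4930452B06Rik had means of 0.0245, 0.0609, 0.0208, 0.0634 and 0.0462 CPM in MCA-943 and log2 fold changes of -7.83, -6.75, -6.44, -7.42 and -6.45.

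The differences were not spread evenly over the chromosomes. Among 491 genes of chromosome 3 with a mean log2 CPM of at least 3, the median log2 fold change was -0.47, and 14.5% were called lower and 3.46% higher. Over all 9348 such genes of the autosomes and X, 4.24% were lower and 7.09% higher. Against the single lines the median was -0.53 for MCA-948, -0.22 for MCA-969, -0.88 for MCA-970 and -0.38 for MCA-972. On chromosome 7 the median of 605 genes was 0.42, with 15.7% called higher and 1.65% lower, and single-line medians of 0.16 to 0.67. The medians of the other 17 autosomes and X lay between -0.18 and 0.28, the highest being chromosome 15. These values are descriptions, since the 4 comparisons share the MCA-943 tumors and genes are not replicates.

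**Figure D5:**
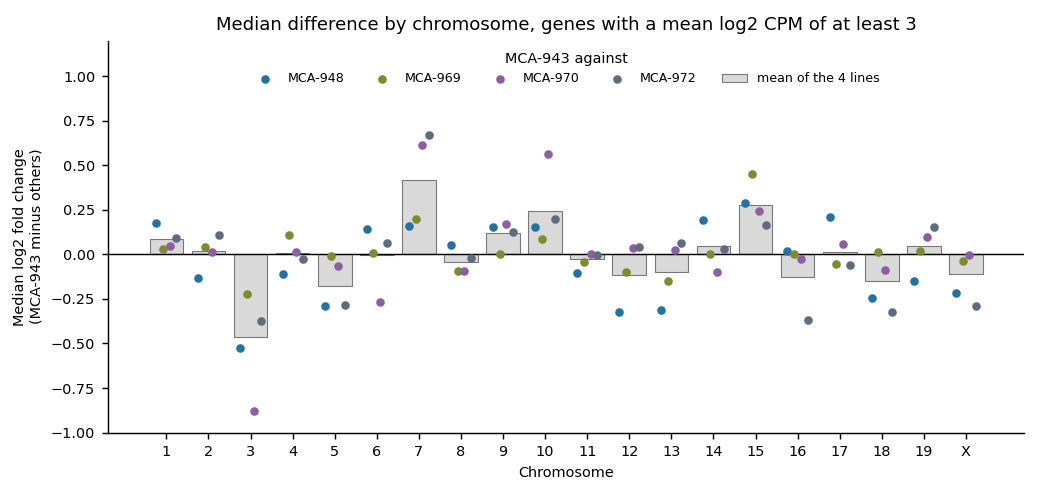
Median log2 fold change of MCA-943 by chromosome, over genes with a mean log2 CPM of at least 3, against the mean of the other lines (gray bars) and against each line (points). Chromosome 3 lies at -0.47 and chromosome 7 at 0.42, and the 4 points of each lie on the side of its bar.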

How the data were processed

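RNA was sequenced from 30 subcutaneous tumors of 5 methylcholanthrene-induced lines after removal of CD45+ cells with beads. The authors aligned reads with STAR 2.5.3a to GRCm38 and deposited whole-number counts per gene from featureCounts (version 1.5.2 per the labels), with duplicates removed by molecular identifiers per the column names. The strand setting is not given in the sources used here, so that reads of overlapping antisense genes cannot be told apart. The table held 48440 genes, of which 48058 were named by GENCODE M21, and 0 sample columns were left unused.

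Groups followed the line in the sample titles. The members and the 54 gene lists were chosen with earlier results of these data known. Counts were filtered with filterByExpr by line, scaled by TMM and fitted with the quasi-likelihood test of edgeR 4.0.16 (R 4.3.3, robust, 1 term per line, biological coefficient of variation 0.221). MCA-943 was set against the mean of 4 lines and against each line, with Benjamini-Hochberg adjustment over 16862 genes. CPM used TMM library sizes, and 3 counts were the floor, 0.0906 CPM in MCA-943 and 0.0834 CPM elsewhere. In the smallest library (27745104 counts) counting error alone gives a coefficient of variation of 19.0% at 1 CPM and 6.0% at 10 CPM. On simulated data 196 of 200 genes shifted by 2 on the log2 scale among 16435 were recovered for the contrast with the mean, with 3 other calls. In the simulation the other lines did not differ from each other, unlike here, so that its number of other calls does not carry over to these data. Alternatives were DESeq2 1.42.0, limma 3.58.1 (voom, and on line means), other filters and thresholds, covariates for library run, title letter and leukocyte level, a replicate block, and each tumor or line left out. Genes were named by rule: the 12 in each direction with the largest change against the nearest line, up to 5 per list and direction, cell type markers, genes absent from MCA-943 alone, and uncalled list members for contrast. Receptors and sensors of interferon were chosen after their values were seen. Some genes that fall under this rule are not reported here. Replicate labels were not used to pair the tumors in the main fit.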

Additional observations from a re-analysis of the deposited data

Results flagged for a closer look

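In 9 of 179 values tested, 1 of the 4 MCA-943 tumors stood apart by Dixon's ratio of gap to range, and chance marks about 1 in 20 such groups. W-2G was highest for Cd80 (27.7 CPM against 22.2 to 22.9 CPM, ratio 0.843) and Ifnar2 (45.6 against 40.0 to 40.1 CPM, ratio 0.977), and lowest for Igf2 (0.949 against 2.11 to 2.19 CPM, ratio 0.951). Tumor a-1G was highest for Col3a1 (21190 against 18690 to 18830 CPM, ratio 0.941) and Csf3 (1.78 against 0.296 to 0.367 CPM, ratio 0.888). Tumor a-R was highest for Igf2bp3 (6.25 against 2.64 to 2.81 CPM, ratio 0.927) and lowest for Loxl1 (664 against 719.9 to 723 CPM, ratio 0.955) and Lum (10.5 against 36.9 to 43.1 CPM, ratio 0.891). Tumor a-1D was lowest for Snai2 (28.6 against 30.03 to 30.3 CPM, ratio 0.851). For Cd80, Igf2 and Igf2bp3 all 4 tumors stayed outside the range of the other lines.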

How the results depend on the processing

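The counts of genes called depended most on thresholds and on what served as a replicate. With line means as the unit, limma called 0 higher and 0 lower genes (smallest adjusted p = 0.0639). Without a fold threshold 5445 higher and 5100 lower genes were called against the mean, and 2003 and 1630 against each line. With a log2 fold change of at least 2 these counts were 779, 964, 262 and 274. With a mean of at least 1 CPM over all tumors 1162 genes were lower against the mean and 363 against each line, and without MCA-948 1144 genes were lower against each remaining line. Leaving out 1 tumor gave 1934 to 2085 higher and 1894 to 2088 lower genes against the mean, and 689 to 729 and 540 to 601 against each line. Genes absent from MCA-943 alone numbered 1 at 0 counts, 11 at up to 10 counts and 5 at 0.5 CPM or more elsewhere, and 3 to 5 with 1 tumor left out. Genes present in it alone numbered 8 at up to 10 counts, 4 at 0.5 CPM, and 0 to 2 with 1 tumor left out, 2 without a-1G, and absent genes 5 without a-R. The cause of these shifts beyond the changed rule was not tested.

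Of the genes called, 416 higher and 369 lower against each line were also called with the library run as a covariate, and 639 and 478 with the leukocyte level. Of 180 named genes called, 26 lost the call with the library run as a covariate, all named with that loss in the report. Hoxa9 and Hoxc10 were among the 26 (adjusted p = 0.145 and 0.0582, edgeR). With the leukocyte level 10 lost the call: Adm, Bnip3, Cd74, Cox4i2, Erg, Hk2, Il11, Myc, Ncr1 and Vwf. Of 206 named genes tested, Ncr1 (log2 fold change -2.04 with the run) and Ptprc (-0.44 with the leukocyte level, which contains it) were called and turned in direction. Uncalled genes that turned were C1qa, C1qb and C1qc with the leukocyte level (-1.53, -1.40 and -1.70) and without MCA-969 (-0.22, -0.17 and -0.36), Mtap (-0.11) and Pkm (0.10) with the run, and Ifnar2 without MCA-969 (-0.00883). With 1 tumor left out the values were -0.30 to 0.44 for C1qa, -0.23 to 0.52 for C1qb, -0.50 to 0.33 for C1qc and -0.0342 to 0.0307 for Ifnar1. Ifnar1 was at -0.00935 with DESeq2, -0.00928 with its size factors, -0.0153 with the leukocyte level, -0.0338 with the run, -0.00152 without a filter, -0.0152 without MCA-948 and -0.22 without MCA-969.

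In the paired analysis with a replicate block from the title labels, 1957 higher and 1898 lower genes were called against the mean, 662 and 523 against each line, 613 and 488 of them also without the block. C1qa, C1qb and C1qc were at -0.28, -0.20 and -0.38 there. Same-label tumors did not deviate together (median r = 0.0248 over 29 pairs, and -0.00665 over 323 other pairs), so that the labels share only a name.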
